A study of Sorghum bicolor with 12 samples.

Results

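The proteins of the cytosolic ribosome were followed in roots of sweet sorghum. Their loci were taken from the annotation deposited with the expression table: a locus was counted when its gene ontology terms named a structural constituent of the ribosome together with the cytosolic large or small subunit, and when it carried none of the terms for salt stress, abscisic acid or water deprivation. This gave 219 of the 34352 loci, 134 of the large and 85 of the small subunit, with none in both and 1 further locus left out through a stress term alone. There were 4 groups of roots. M-81E-salt was the salt-tolerant line M-81E after 24 h at the final NaCl concentration of the nutrient solution, and M-81E-CK the same line without added NaCl. Roma-salt was the salt-sensitive line Roma after the same treatment, and Roma-CK that line without added NaCl. The study raised NaCl to the final concentration in steps, so exposure to salt lasted longer than 24 h. Each group had 3 libraries, described by the study as biological replicates, and each line is a single genotype, so that salt tolerance cannot be told apart from other differences between the lines. The values are FPKM, fragments mapped to a locus, scaled by its length and by the library's mapped fragments, so levels can be set beside each other between loci of different length. Fold changes are differences on the log2(FPKM + 1) scale, which makes them smaller at loci with low FPKM.

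A cytosolic ribosome joins a large subunit, which forms the peptide bond, to a small subunit, which reads the messenger RNA. Each subunit is built from ribosomal RNA and from many small proteins that are needed in about equal amounts, and in plants nearly every one of these proteins is encoded by a family of similar genes. Growing tissues such as the root tip make many ribosomes, and the messenger RNAs of ribosomal proteins are among the most abundant in them.

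The libraries were first compared as a whole. The members held 3.20, 3.54 and 3.45% of the summed FPKM in M-81E-salt and 3.88, 4.05 and 5.26% in M-81E-CK, with M-81E-CK replicate 3 above the other M-81E-CK libraries. They held 4.67, 4.35 and 5.28% in Roma-salt and 5.16, 5.34 and 4.29% in Roma-CK. Depth relative to M-81E-CK replicate 1, read from the spacing of values up to 0.1 FPKM, ranged over 0.812 to 1.042, and the table gives no fragment numbers. Over the libraries, 18 photosystem loci, which mark green tissue, summed to 4.84 to 11.3 FPKM, 29 root hair loci to 198 to 284 FPKM and 1 Casparian strip locus had 3.81 to 8.44 FPKM. Rescaling to a common median ratio over 10607 loci lowered the 6 Roma libraries by 0.0853 to 0.253 and raised the 6 M-81E libraries by 0.0667 to 0.214 on the log2 scale. It moved the median of all loci between Roma-CK and M-81E-CK to 0.02, against 0.11 as deposited, and the counts and medians between the lines are therefore also given after rescaling.

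The annotation was checked against the KEGG orthology numbers of the table, which name the protein family. A eukaryotic ribosomal family was named at 190 members, 117 of the large and 73 of the small subunit, in 41 and 26 families. L40e is counted in both, since one locus listed under the small subunit (SORBI_3010G040700 with SORBI_3010G040600) carries the number of L40e, a protein of the large subunit. Another 12 members carried only a bacterial-type number, the kind found in mitochondrial and plastid ribosomes, 6 carried a number outside the ribosome and 11 carried none. The 4 kinds differed in level. The median of the mean FPKM was 39.1 at the members with a eukaryotic number, 2.41 at those with a bacterial-type number, 1.24 at those with no number and 0.183 at those with another number.

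Most members were expressed at high levels. In the large subunit, 91 of 134 members had a mean of at least 10 FPKM over the 12 libraries, 22 at least 100 FPKM, and 19 were under 1 FPKM. In the small subunit, 60 of 85 members had at least 10 FPKM, 17 at least 100 FPKM, and 11 were under 1 FPKM. The highest means of the large subunit belonged to the stalk proteins LP0 (SORBI_3007G029400, 404 FPKM) and LP1 (SORBI_3007G018300, 401 FPKM), followed by L13Ae (SORBI_3001G085400, 309.8 FPKM), L36e (SORBI_3009G163800, 291 FPKM) and L38e (SORBI_3007G184600, 289 FPKM). The highest means of the small subunit belonged to S5e (SORBI_3003G109600, 464 FPKM), which lies near the exit of the messenger RNA, S8e (SORBI_3004G244800, 270.2 FPKM), S27Ae (SORBI_3003G152600, 267 FPKM), S20e (SORBI_3001G436200, 174 FPKM) and S4e (SORBI_3001G018900, 136 FPKM). Of the 41 large-subunit families 38 had more than 1 member locus, as had 24 of the 26 small-subunit families.

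The first comparison asked how the members differed between salt and control roots of M-81E. Most members were lower in M-81E-salt, by a moderate amount and in both subunits. The summed FPKM of the large subunit was 5137, 5799 and 5760.5 in M-81E-salt and 6448, 6846 and 9135 in M-81E-CK, with means of 5566 ± 371 and 7476 ± 1450.1 (SD, n = 3 each). That of the small subunit was 3432, 3803 and 3528 in M-81E-salt and 4179.9, 4179.6 and 5623 in M-81E-CK, with means of 3588 ± 192 and 4661 ± 834 (SD, n = 3 each). In both subunits all 3 M-81E-salt libraries lay below all 3 M-81E-CK libraries, also after rescaling. M-81E-CK replicate 3 had the highest sums. Without it the M-81E-CK mean was 6647 FPKM for the large and 4179.8 FPKM for the small subunit, still above every M-81E-salt library.

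**Figure D1:**
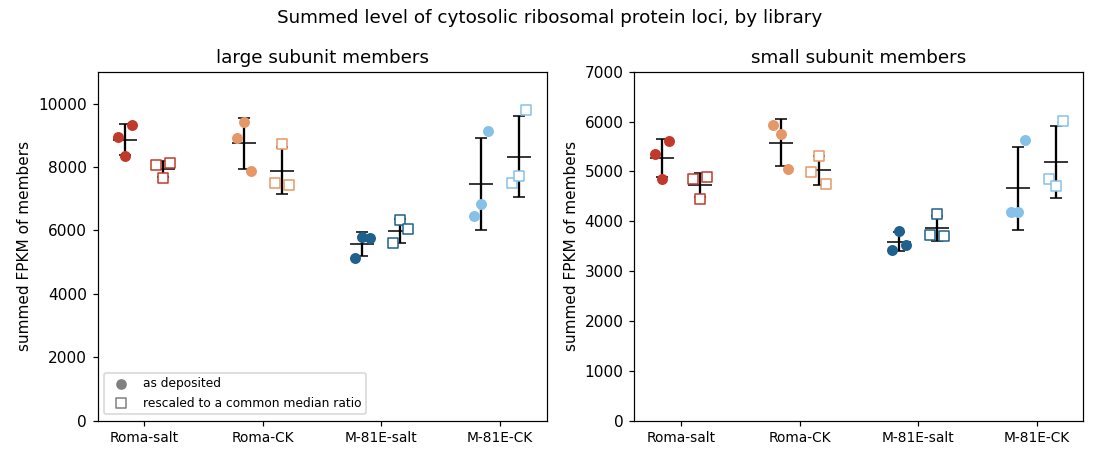
Summed FPKM of the large-subunit (left) and small-subunit (right) members in each library of Roma-salt, Roma-CK, M-81E-salt and M-81E-CK. Filled circles are values as deposited, open squares are values after rescaling to a common median ratio, and bars are the mean and SD of 3 libraries. The M-81E-salt libraries, at 5137 to 5799 FPKM as deposited for the large subunit, lie below all others.

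Locus by locus, few members passed the adjusted test in M-81E. Of 216 members with a value above 0 FPKM in any of the 6 libraries, 2 were higher and 1 was lower at a Benjamini-Hochberg adjusted limma p under 0.05, against 0.332% higher and 0.494% lower over all loci tested. At an unadjusted limma p under 0.05, 72 members were lower and 5 were higher, against 7.11% lower and 8.21% higher over all loci tested. By subunit, 41 of 132 large-subunit and 31 of 84 small-subunit members were lower. At 85 members the 3 M-81E-salt values lay below all M-81E-CK values and at 10 above them, against 9.93% and 12.2% over all loci tested. The median log2 fold change was −0.35 in the large and −0.41 in the small subunit, against 0.01 over all loci. Among members with a mean of at least 10 FPKM it was −0.49 in the large and −0.52 in the small subunit, against 0.02 over all loci at that level. The count of 72 was 46 without M-81E-CK replicate 3 and 45 without M-81E-salt replicate 1, where the medians of all members were −0.22 and −0.34. With all 12 libraries in one fit 22 members were lower at the adjusted limma p, and the share over all loci in that fit is not given here. With the replicate number as a block, and with the linear model of Ballgown, none passed the adjusted test.

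**Figure D2:**
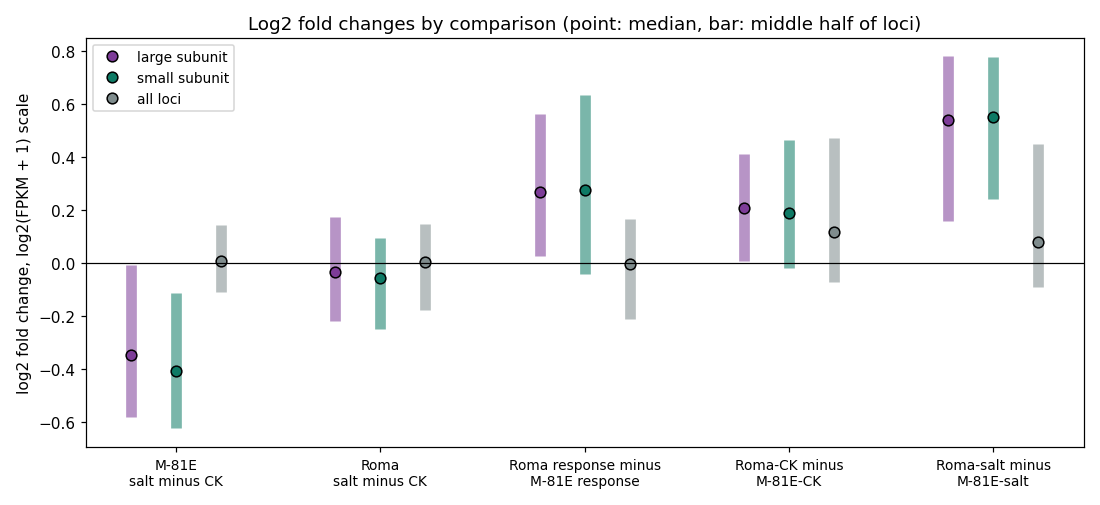
Log2 fold changes on the log2(FPKM + 1) scale for large-subunit members, small-subunit members and all loci tested in each comparison. Points are medians and bars run between the lower and upper quartile of the loci. The medians of both subunits lie at −0.35 and −0.41 in M-81E, at −0.04 and −0.06 in Roma, and at 0.54 and 0.55 between Roma-salt and M-81E-salt.

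The 3 members that passed the adjusted test in M-81E had 3.04 to 24.3 FPKM in all 6 libraries. L37Ae (SORBI_3009G227400), a small protein of the large subunit, had 12.3, 10.01 and 12.8 FPKM in M-81E-salt and 24.3, 23.6 and 22.1 FPKM in M-81E-CK. It fell, with a log2 fold change of −0.94 (SE 0.11) and an adjusted limma p of 0.0375. A locus of the stalk protein LP2 (SORBI_3009G155600 with SORBI_3009G155700) had 5.97, 6.59 and 5.31 FPKM in M-81E-salt and 3.11, 3.04 and 3.08 FPKM in M-81E-CK, and rose with a log2 fold change of 0.77 (SE 0.10) and an adjusted limma p of 0.0494. This locus holds 2 annotated genes, between which its FPKM cannot be divided. A large-subunit locus with no orthology number (SORBI_3003G086700) had 10.9, 11.7 and 11.3 FPKM in M-81E-salt and 6.69, 6.49 and 6.91 FPKM in M-81E-CK. It rose, with a log2 fold change of 0.68 (SE 0.08) and an adjusted limma p of 0.0331. Each of the 3 calls was lost in all 6 fits that left out 1 library, with adjusted limma p between 0.06 and 0.167.

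Other members stood out by the size of their difference without passing the adjusted test. L11e (SORBI_3004G104100), which binds the 5S ribosomal RNA together with L5e, had 19.97, 13.7 and 12.1 FPKM in M-81E-salt and 36.9, 36.9 and 51.9 FPKM in M-81E-CK. The log2 fold change was −1.41 (SE 0.23) with an adjusted limma p of 0.0739. S16e (SORBI_3005G019700), whose tail reaches toward the transfer RNA in the peptidyl site, had 20.7, 28.9 and 33.3 FPKM in M-81E-salt and 61.2, 60.1 and 76.1 FPKM in M-81E-CK. Its log2 fold change was −1.24 (SE 0.20) with an adjusted limma p of 0.0739. Both loci were separated between the groups, with every M-81E-salt value below the lowest M-81E-CK value. The other S16e locus (SORBI_3008G021100) had 42.4, 59.7 and 0 FPKM in M-81E-salt and 76.9, 81.1 and 101 FPKM in M-81E-CK, so that a listed 0 sets much of its log2 fold change of −2.65 (SE 1.60), at an adjusted limma p of 0.499. On the higher side, a second L38e locus (SORBI_3002G331300) had 46.1, 75.2 and 52.8 FPKM in M-81E-salt and 35.3, 38.97 and 45.8 FPKM in M-81E-CK. Its log2 fold change was 0.50 (SE 0.21) with an adjusted limma p of 0.339, whereas the more abundant L38e locus (SORBI_3007G184600) had −0.64 with an adjusted limma p of 0.326.

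Fragments from similar copies can be assigned to either copy, so the FPKM of each protein family were also summed over its member loci. Copies outside the ontology rule are not in these sums. The 151 loci with a eukaryotic ribosomal orthology number outside the rule held 3077 to 5192 FPKM per library. Fragments assigned to them are missed, so the sums can be parts of a family. L26e, listed at 0 in 10 libraries, was left out, which gave 40 large-subunit and 26 small-subunit families. In M-81E the mean of the summed FPKM was lower in salt than in CK in 60 of 66 families, 38 of 40 in the large and 22 of 26 in the small subunit. The 3 libraries of each group did not overlap in 35 families, all lower in salt. The share of single loci that were separated and lower was 9.93% over the whole table. The ratio of salt to CK had a median of 0.713 over the families and ranged over 0.402 to 1.35. Without M-81E-CK replicate 3 the ratio was below 1 in 57 families, with no overlap in 36 and a median of 0.808. After rescaling it was below 1 in 61 families, with no overlap in 42 and a median of 0.687. The lowest ratio was that of L21e, with 38.1, 26.5 and 72.8 FPKM in M-81E-salt and 43.8, 112 and 186 FPKM in M-81E-CK. Its groups overlapped because M-81E-CK replicate 1 lay within the salt range.

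The stalk of the large subunit, which recruits the elongation factors, was lower in all its families. LP0 summed to 243, 269.7 and 189.8 FPKM in M-81E-salt and 282, 309.9 and 421 FPKM in M-81E-CK, a ratio of 0.694. LP1 had 287 ± 48.7 FPKM in M-81E-salt and 402 ± 73.3 FPKM in M-81E-CK (SD, n = 3 each), a ratio of 0.714. LP2, with 5 loci, had 115 ± 11.5 FPKM in M-81E-salt and 177 ± 34.9 FPKM in M-81E-CK (SD, n = 3 each), a ratio of 0.651. The groups of libraries did not overlap in any of the 3 families. The higher LP2 locus described above (SORBI_3009G155600 with SORBI_3009G155700) was thus a minor copy of a family that was lower. Of the more abundant LP2 loci, SORBI_3009G242300 had 51.2, 59.8 and 62.4 FPKM in M-81E-salt and 82.7, 90.3 and 119 FPKM in M-81E-CK. SORBI_3006G067800 had 31.7, 33.1 and 45.9 FPKM in M-81E-salt and 46.3, 50.6 and 68.5 FPKM in M-81E-CK. The log2 fold changes were −0.73 (SE 0.17) and −0.57 (SE 0.21), with adjusted limma p of 0.138 and 0.291.

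Of the families around the 5S ribosomal RNA, L11e had a ratio of 0.644 without overlap and L5e a ratio of 0.800 with overlap. L3e, which lies close to the peptidyl transferase centre, had a ratio of 0.792 with overlap. Along the exit tunnel of the new protein the values were mixed. L23Ae, where proteins that meet the new chain dock, had a ratio of 0.815, L4e, whose loop lines the tunnel, a ratio of 1.01, and L31e, at the rim of the tunnel, a ratio of 1.22, all with overlapping groups. After rescaling L5e, L3e and L23Ae were also separated and lower.

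Of the families at the messenger RNA channel of the small subunit, S3e summed to 85.4, 93.5 and 75.4 FPKM in M-81E-salt and 117, 129 and 143 FPKM in M-81E-CK, a ratio of 0.655 without overlap. Its neighbour S2e had a ratio of 1.35 with overlap. S23e at the decoding centre had a ratio of 0.849 with overlap, S14e a ratio of 0.616 and S5e a ratio of 0.740, both without overlap. S16e, which reaches the peptidyl site, had the lowest ratio of the small subunit, with 63.1, 88.5 and 33.3 FPKM in M-81E-salt and 138, 141 and 177 FPKM in M-81E-CK, a ratio of 0.405 without overlap. The 33.3 FPKM of M-81E-salt replicate 3 include the listed 0 at SORBI_3008G021100, which lowers this ratio.

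L40e and S27Ae are made as fusions with ubiquitin that are cut after translation. L40e, with 9 large-subunit loci, summed to 161, 133 and 162 FPKM in M-81E-salt and 149, 241 and 312 FPKM in M-81E-CK, so that M-81E-salt replicates 1 and 3 lay above M-81E-CK replicate 1. Its most abundant locus (SORBI_3002G135200) had 66.3, 81.1 and 73.9 FPKM in M-81E-salt and 88.3, 94.5 and 120.4 FPKM in M-81E-CK, with a log2 fold change of −0.44 (SE 0.16) and an adjusted limma p of 0.272. Of the S27Ae loci, SORBI_3003G152600 had 199, 204 and 245 FPKM in M-81E-salt and 225, 223 and 314 FPKM in M-81E-CK. The other S27Ae locus (SORBI_3009G054800) was listed at 0 in 11 of the 12 libraries and at 241 FPKM in M-81E-salt replicate 2, which alone puts the family's ratio at 1.17.

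**Figure D3:**
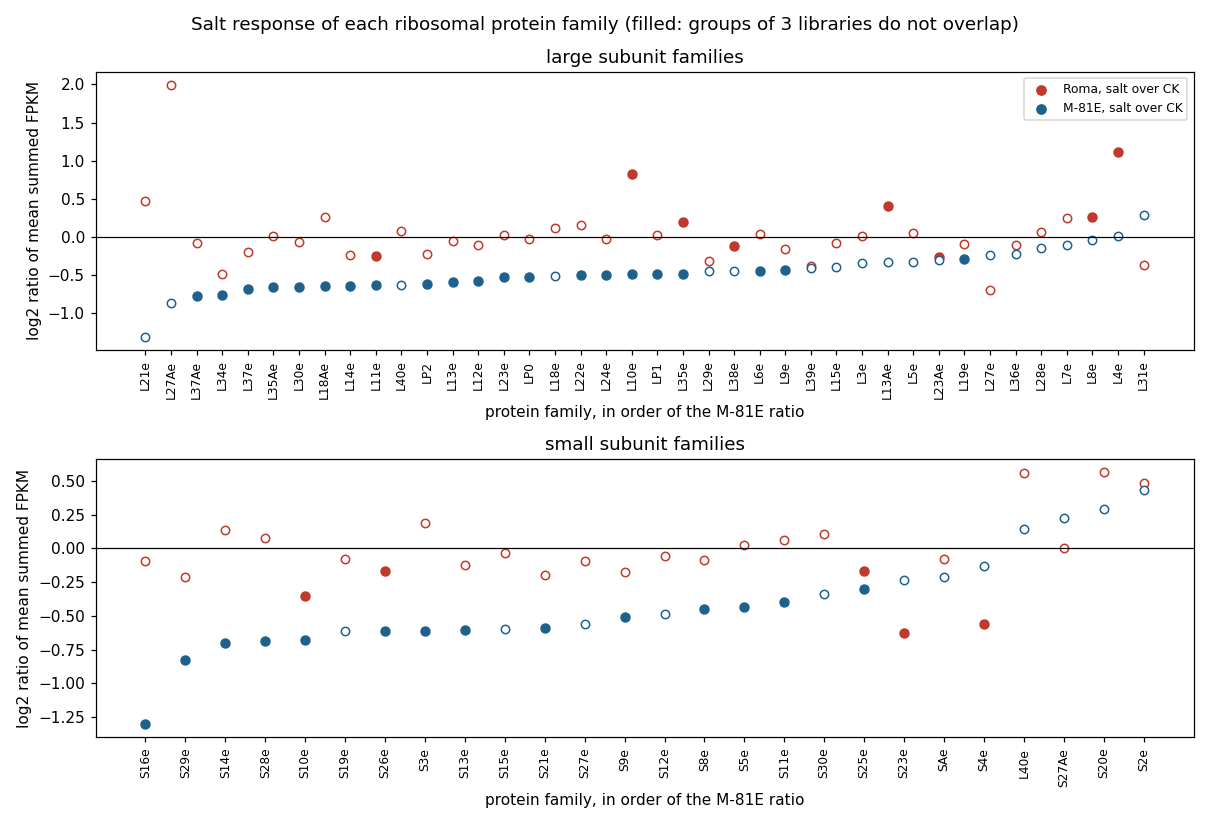
Log2 ratio of the mean summed FPKM of member loci, salt over CK, for each ribosomal protein family in Roma (red) and M-81E (blue). The families of each subunit are in order of the M-81E ratio. Filled points mark families whose groups of 3 libraries do not overlap. In M-81E 60 of 66 families lie below 0 and in Roma 37 of 66 do.

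Other parts of the translation machinery are given beside these values. Of 45 mitochondrial ribosomal protein loci, 1 was higher and 3 were lower in M-81E-salt at an unadjusted limma p under 0.05, with a median log2 fold change of −0.20. Of 14 plastid ribosomal protein loci tested, 0 were higher and 2 lower, with a median of −0.08. Of 62 ribosome biogenesis loci, whose products process ribosomal RNA and assemble the subunits, 3 were higher and 9 lower, with a median of −0.05. The summed FPKM of these loci was nevertheless separated, at 593, 573 and 712 in M-81E-salt and 724, 759 and 983 in M-81E-CK. Of 62 translation initiation factors 6 were higher and 4 lower, with a median of −0.02, and of 32 elongation factors 3 were higher and 1 lower, with a median of −0.05. Of 34 loci of the proteasome, another abundant complex, 0 were higher and 1 lower, with a median of −0.03. The sums of all 3 lists overlapped between M-81E-salt and M-81E-CK. A further 145 tested loci carry a eukaryotic ribosomal orthology number without meeting the ontology rule. Of these, 29 were lower and 11 higher, with a median of −0.37 among the 55 loci with at least 10 FPKM.

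Both lists of dividing-cell markers had a negative median log2 fold change in M-81E, but only the sums for DNA replication initiation were separated. DNA replication initiation loci summed to 37.9, 36.6 and 30.9 FPKM in M-81E-salt and 40.4, 45.9 and 54.1 FPKM in M-81E-CK, without overlap. Of the 17 loci tested, 0 were higher and 4 lower at an unadjusted limma p under 0.05, with a median log2 fold change of −0.30. The 25 nucleosome loci summed to 878, 1964 and 1259 FPKM in M-81E-salt and 1698, 1577 and 1982 FPKM in M-81E-CK, with overlap, since M-81E-salt replicate 2 lay above M-81E-CK replicates 1 and 2. Of these loci 2 were higher and 7 lower, with a median of −0.49. Over all loci tested 8.21% were higher and 7.11% lower at that threshold. No locus of these lists, 18 and 25 in all, was at 0 in all 12 libraries. Their part in the ribosomal values was not tested. In whole roots, fewer cells of a type and less RNA per cell cannot be told apart.

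The next comparison asked the same question in Roma. The members as a group lay close together in the salt and control roots of this line. The large subunit summed to 8930.5, 8332 and 9310.5 FPKM in Roma-salt and 8918, 9433 and 7874 FPKM in Roma-CK. The small subunit summed to 5359, 4846 and 5607 FPKM in Roma-salt and 5939.7, 5748 and 5045 FPKM in Roma-CK. The groups overlapped in both subunits. Of 216 members tested, 1 was higher and 0 were lower at an adjusted limma p under 0.05, against 1.04% higher and 0.784% lower over all loci tested. At an unadjusted limma p under 0.05, 11 were higher and 15 lower, against 9.49% and 8.39% over all loci tested, and 31 were lower without Roma-CK replicate 3. At 18 members the 3 Roma-salt values lay above all Roma-CK values and at 22 below them, against 13.1% and 11.5% over all loci tested. The median log2 fold change was −0.04 in the large and −0.06 in the small subunit, against 0.00255 over all loci. Of the 66 families, 37 had a ratio below 1, and the groups did not overlap in 8 families that were lower and 5 that were higher, with a median ratio of 0.962. After rescaling 9 lower and 4 higher families were separated.

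The member that passed the adjusted test in Roma was L10e (SORBI_3001G383000), which joins the large subunit late in its assembly in yeast and lies beside the transfer RNA path. It had 14.4, 25.1 and 40.2 FPKM in Roma-salt and 1.79, 2.39 and 1.85 FPKM in Roma-CK. It rose, with a log2 fold change of 3.09 (SE 0.36) and an adjusted limma p of 0.0310, and the call was lost with the replicate number as a block, with the linear model of Ballgown and in 4 of the 6 fits that left out 1 library, with adjusted limma p up to 0.0969. The L10e family as a whole summed to 47.7, 56.2 and 77.7 FPKM in Roma-salt and 34.2, 35.1 and 33.2 FPKM in Roma-CK, a ratio of 1.77.

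Among the other separated families, L4e summed to 101, 244 and 215 FPKM in Roma-salt and 85.5, 96.98 and 75.01 FPKM in Roma-CK, a ratio of 2.17. Its locus SORBI_3001G057300 had 15.04, 159 and 167 FPKM in Roma-salt and 2.98, 11.4 and 11.5 FPKM in Roma-CK, with a log2 fold change of 3.15 (SE 1.05) and an adjusted limma p of 0.205. L13Ae, L35e and L8e had ratios of 1.32, 1.15 and 1.20. On the lower side, S23e, a protein of the decoding centre, summed to 209.7, 159 and 192 FPKM in Roma-salt and 349, 280.1 and 235 FPKM in Roma-CK, a ratio of 0.649. Its locus SORBI_3001G036900 had 65.2, 59.7 and 74.2 FPKM in Roma-salt and 140.4, 124 and 99.9 FPKM in Roma-CK, a log2 fold change of −0.85 (SE 0.16) and an adjusted limma p of 0.0707. S4e had a ratio of 0.678, S10e of 0.784, S25e of 0.889, S26e of 0.890, L23Ae of 0.834, L38e of 0.921 and L11e of 0.839. Of the L11e loci, SORBI_3004G104300 had 29.4, 28.4 and 27.9 FPKM in Roma-salt and 71.5, 39.1 and 58.9 FPKM in Roma-CK, with a log2 fold change of −0.92 and an adjusted limma p of 0.111. An L40e locus of low level (SORBI_3002G308900) had 1.89, 2.35 and 0.974 FPKM in Roma-salt and 3.92, 5.55 and 10.2 FPKM in Roma-CK, with −1.42 and an adjusted limma p of 0.127. On the higher side, S30e (SORBI_3010G057100) had 161, 166 and 165 FPKM in Roma-salt and 151, 15.1 and 156 FPKM in Roma-CK, with 1.19 and an adjusted limma p of 0.581. The 15.1 FPKM of Roma-CK replicate 2 set much of this difference, and the S30e family had a ratio of 1.08 with overlap.

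In Roma the same lists of dividing-cell genes gave 61.4, 50.1 and 68.7 FPKM for DNA replication initiation in Roma-salt and 79.1, 67.5 and 63.6 FPKM in Roma-CK, with overlap, and 0 loci higher and 2 lower of 18. Nucleosome loci gave 2311, 2079.5 and 2170.1 FPKM in Roma-salt and 1209, 1882 and 1379.5 FPKM in Roma-CK, without overlap, and 7 were higher and 1 lower of 25. These counts are at an unadjusted limma p under 0.05, where 9.49% were higher and 8.39% lower over all loci tested. Proteasome loci had a median log2 fold change of −0.15 and ribosome biogenesis loci of 0.02.

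The salt responses of the lines were set against each other through a line by treatment interaction over all 12 libraries, given as the Roma response minus the M-81E response. Of 219 members, 7 had a positive and 0 a negative interaction at an adjusted limma p under 0.05, against 1.01% and 0.795% over all loci tested. At an unadjusted limma p under 0.05, 48 were positive and 6 negative, against 7.40% and 7.66% over all loci tested. The median difference was 0.27 in the large and 0.28 in the small subunit on the log2 scale, against −0.00359 over all loci. After rescaling it was 0.32 in both subunits, with 9 members positive and 0 negative at the adjusted limma p. The share over all loci after rescaling is not given here. The count of 7 was 2 with the replicate number as a block and 2 with the linear model of Ballgown. The count of 7 was 2 to 5 when any 1 library was left out, with 2 without M-81E-CK replicate 1 or 2, Roma-CK replicate 3 or Roma-salt replicate 1.

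L10e (SORBI_3001G383000) had the largest difference of the 7. Besides the Roma values given above it had 7.15, 7.35 and 9.03 FPKM in M-81E-salt and 13.7, 15.5 and 10.3 FPKM in M-81E-CK. The difference of the responses was 3.76 (SE 0.43) with an adjusted limma p of 0.00502, and it stayed below 0.05 in all 12 fits that left out 1 library. All 3 M-81E-salt values lay below the M-81E-CK values and all 3 Roma-salt values above the Roma-CK values. Of the other L10e loci, SORBI_3004G103700 had 19.6, 18.5 and 19.5 FPKM in Roma-salt and 20.8, 20.1 and 20.4 FPKM in Roma-CK, against 11.5, 11.3 and 11.7 FPKM in M-81E-salt and 14.8, 17.4 and 21.8 FPKM in M-81E-CK, an interaction of 0.50 with an adjusted limma p of 0.164.

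Both S2e loci in the list were of moderate level. S2e lies at the entry of the messenger RNA channel. SORBI_3002G430800 had 16.8, 15.5 and 15.8 FPKM in Roma-salt and 9.87, 11.8 and 11.2 FPKM in Roma-CK, against 7.27, 6.42 and 8.76 FPKM in M-81E-salt and 11.4, 10.1 and 11.2 FPKM in M-81E-CK. The interaction was 1.01 (SE 0.15) with an adjusted limma p of 0.0153, and it stayed below 0.05 in all 12 fits that left out 1 library. SORBI_3010G150575 had 7.90, 6.66 and 6.13 FPKM in Roma-salt and 4.99, 4.78 and 4.23 FPKM in Roma-CK, against 3.13, 2.74 and 4.31 FPKM in M-81E-salt and 5.42, 5.45 and 6.77 FPKM in M-81E-CK. At both loci the salt values lay above the CK values in Roma and below them in M-81E. The interaction at the second locus was 1.13 (SE 0.21) with an adjusted limma p of 0.0309, and it was lost in 9 of 12 fits that left out 1 library.

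The other 4 loci were separated in M-81E and overlapped in Roma. S16e (SORBI_3005G019700) had 92.8, 87.6 and 99.7 FPKM in Roma-salt and 88.5, 99.2 and 83.5 FPKM in Roma-CK, with an interaction of 1.29 (SE 0.24) and an adjusted limma p of 0.0306. L11e (SORBI_3004G104100) had 47.7, 45.3 and 49.2 FPKM in Roma-salt and 47.8, 54.6 and 47.8 FPKM in Roma-CK, with an interaction of 1.33 (SE 0.26) and an adjusted limma p of 0.0360. The M-81E values of both loci are given above. L6e (SORBI_3004G198400), a protein of the large subunit, had 48.6, 44.3 and 50.4 FPKM in Roma-salt and 45.2, 46.7 and 36.2 FPKM in Roma-CK, against 23.9, 27.01 and 24.5 FPKM in M-81E-salt and 38.4, 36.5 and 45.5 FPKM in M-81E-CK. Its interaction was 0.81 (SE 0.17) with an adjusted limma p of 0.0469. S14e (SORBI_3006G106000 with SORBI_3006G106100), which lies on the platform of the small subunit, had 14.97, 14.8 and 16.3 FPKM in Roma-salt and 11.9, 14.9 and 14.2 FPKM in Roma-CK, against 7.78, 7.75 and 7.86 FPKM in M-81E-salt and 11.5, 12.1 and 15.4 FPKM in M-81E-CK. Its interaction was 0.82 (SE 0.16) with an adjusted limma p of 0.0383. These 4 calls were lost in 8 (S16e), 11 (L11e), 12 (L6e) and 10 (S14e) of the 12 fits that left out 1 library.

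**Figure D4:**
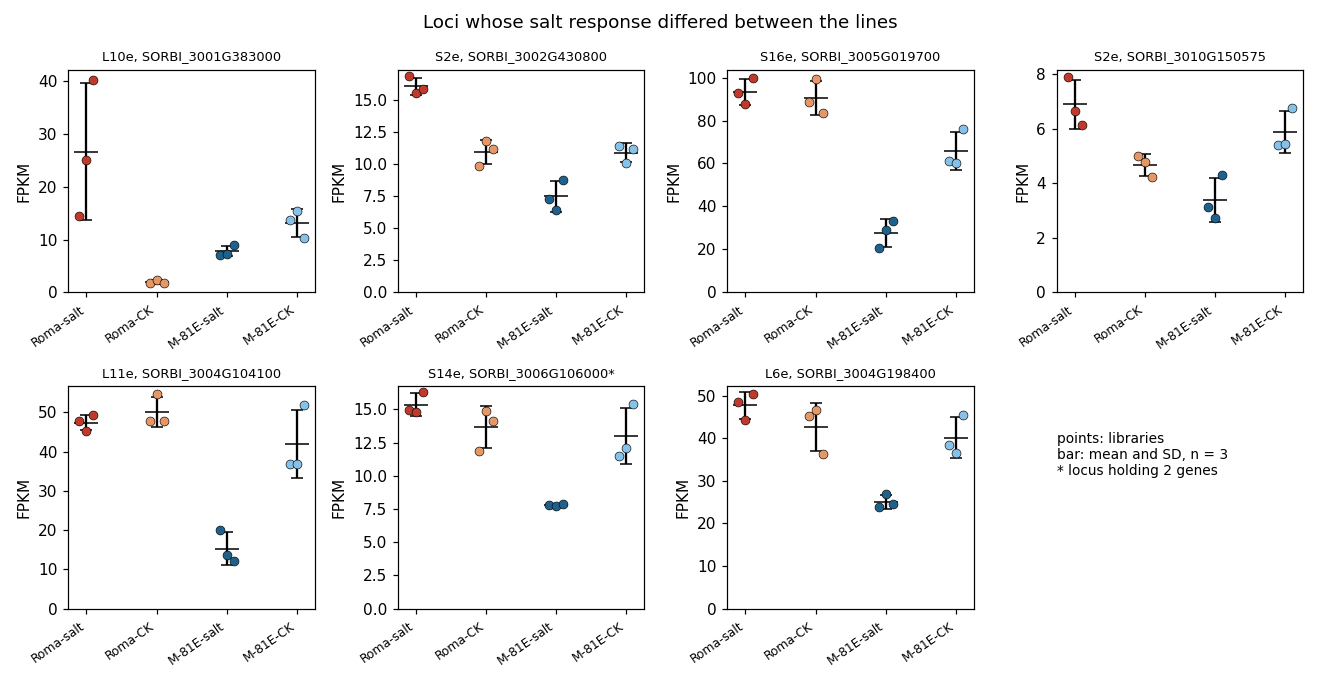
FPKM of the 7 loci whose response to salt differed between the lines, in Roma-salt, Roma-CK, M-81E-salt and M-81E-CK. Points are libraries and bars the mean and SD of 3 libraries. L10e lies between 1.79 and 2.39 FPKM in Roma-CK and between 14.4 and 40.2 FPKM in Roma-salt, while all 7 loci lie lower in M-81E-salt than in M-81E-CK.

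The lines were then compared without salt. As deposited, the medians of both subunits were above 0, and after rescaling they were below it. Of 216 members tested, 15 were higher and 6 lower at an adjusted limma p under 0.05, against 18.5% and 8.84% over all loci tested. At an unadjusted limma p under 0.05, 38 were higher and 6 lower, against 27.7% and 12% over all loci tested. The groups did not overlap at 44 members that were higher and 12 that were lower, against 31.9% and 13.7% over all loci tested. The median log2 fold change was 0.21 in the large and 0.19 in the small subunit, against 0.11 over all loci and 0.18 over loci with at least 10 FPKM. After rescaling the medians were −0.06 and −0.07, with 9 members higher and 12 lower at the adjusted limma p. These 2 counts have no share over all loci after rescaling beside them. Summed by family, 54 of 66 families had a higher mean in Roma-CK as deposited and 16 after rescaling, so the direction of the members as a group turns with the scaling. With the replicate number as a block 4 were higher and 4 lower. With the linear model of Ballgown 0 were higher and 0 lower at the adjusted p and the medians of the large and small subunit were −0.0556 and −0.110, with a covariate that shares 0.852 of its variance with the line. The count of 15 was 28 without M-81E-CK replicate 3, 24 without Roma-CK replicate 3, 10 without Roma-CK replicate 1, 7 without M-81E-CK replicate 1 and 8 without M-81E-CK replicate 2.

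Among the members that differed between the lines without salt was S5e (SORBI_3003G109600), which had 588, 689.6 and 579.8 FPKM in Roma-CK and 303, 317 and 428 FPKM in M-81E-CK, a log2 fold change of 0.84 (SE 0.20) and an adjusted limma p of 0.0315. S15e (SORBI_3003G439900) had 1.66, 1.80 and 2.25 FPKM in Roma-CK and 0.0745, 0.0450 and 0.0585 FPKM in M-81E-CK, with a log2 fold change of 1.45 (SE 0.11) and an adjusted limma p of 0.00100. It was close to 0 in every M-81E library, also with salt, and at 1.66 to 2.59 FPKM in every Roma library. L7e (SORBI_3007G184400) had 20.9, 18.9 and 15.4 FPKM in Roma-CK and 3.15, 2.62 and 7.27 FPKM in M-81E-CK, with a log2 fold change of 1.95 (SE 0.34) and an adjusted limma p of 0.0115. L10e was lower in Roma-CK at both SORBI_3001G383000, with a log2 fold change of −2.22 (SE 0.17) and an adjusted limma p of 0.000989, and SORBI_3001G177800 with SORBI_3001G177700, with −0.82 (SE 0.10) and 0.00376. The first of these was the locus with the largest interaction. S13e (SORBI_3002G348100), a locus of low level with several listed zeros, had 2.67 (SE 0.40) with an adjusted limma p of 0.00710. Loci with a bacterial-type number were also among the calls. S5 (SORBI_3001G191000) had 1.13, S18 (SORBI_3001G204100) 0.93 and L14 (SORBI_3008G172100) 0.87 on the log2 scale, with adjusted limma p of 0.00476, 0.0235 and 0.00842. Among the lower calls were SORBI_3003G086700, with no orthology number, at −1.24 and an adjusted limma p of 0.00131, and SORBI_3007G080900, whose orthology number is that of an enzyme, at −0.91 and 0.0396. Of these calls, that of S5e was lost in 5 of 6 fits that left out 1 library, that of S18 in 3 and that of SORBI_3007G080900 in 5, whereas those of L7e, S15e, S13e and both L10e loci kept an adjusted limma p under 0.05 in all 6.

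With salt, more members passed the test between the lines. Of 218 members tested, 92 were higher and 5 lower in Roma-salt than in M-81E-salt at an adjusted limma p under 0.05, against 21.2% and 9.15% over all loci tested. By subunit, 58 were higher and 3 lower of 133 in the large, and 34 higher and 2 lower of 85 in the small subunit. At an unadjusted limma p under 0.05, 121 were higher and 6 lower, against 28.4% and 12.4% over all loci tested. The groups did not overlap at 124 members that were higher and 7 that were lower, against 32% and 14.1% over all loci tested. The median log2 fold change was 0.54 in the large and 0.55 in the small subunit, against 0.08 over all loci and 0.17 over loci with at least 10 FPKM. After rescaling the medians were 0.31 and 0.30, with 46 members higher and 6 lower at the adjusted limma p. The shares over all loci given here are as deposited, so the counts after rescaling cannot be read against them. With the replicate number as a block 49 were higher and 3 lower. With the linear model of Ballgown, the tool of the study, 0 were higher and 0 lower at the adjusted p and the medians of the large and small subunit were 0.0896 and 0.168, but the library covariate of that model shares 0.987 of its variance with the line. The count of 92 was 56 without Roma-salt replicate 1 and 59 without M-81E-salt replicate 1. Summed by family, 64 of 66 families had a higher mean in Roma-salt and 52 were higher without overlap. After rescaling these counts were 58 and 33.

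S5e, the highest member of the small subunit, had 643, 586 and 657 FPKM in Roma-salt and 286, 224 and 266 FPKM in M-81E-salt. Its log2 fold change was 1.28 (SE 0.16) with an adjusted limma p of 0.00362. The stalk protein LP0 (SORBI_3007G029400) had 538, 455 and 565 FPKM in Roma-salt and 242, 269 and 189 FPKM in M-81E-salt, with a log2 fold change of 1.16 (SE 0.19) and an adjusted limma p of 0.00871. Each Roma-salt value of these loci was above each M-81E-salt value. LP1 (SORBI_3007G018300) had a log2 fold change of 0.74 (SE 0.17) and an adjusted limma p of 0.0250. The ubiquitin fusion L40e (SORBI_3002G135200) had 163, 145 and 149.6 FPKM in Roma-salt and 66.3, 81.1 and 73.9 FPKM in M-81E-salt, with a log2 fold change of 1.04 (SE 0.12) and an adjusted limma p of 0.00252. The L38e locus SORBI_3002G331300 had 145, 129 and 129 FPKM in Roma-salt and 46.1, 75.2 and 52.8 FPKM in M-81E-salt, with 1.23 (SE 0.20) and an adjusted limma p of 0.00797. L18Ae (SORBI_3009G233400) had 301, 271 and 275 FPKM in Roma-salt and 139, 155 and 57.00 FPKM in M-81E-salt, with 1.39 (SE 0.40) and 0.0477. The calls of LP1 and L18Ae were lost in 5 and 4 of the 6 fits that left out 1 library, and those of S5e, LP0, L40e and L38e in 0. The 4 interaction loci that were separated in M-81E alone were also separated here. S16e had 1.74, L11e 1.60, L6e 0.90 and S14e 0.89 on the log2 scale, with adjusted limma p of 0.00217, 0.00287, 0.00198 and 0.00114.

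Of the 5 members that were lower in Roma-salt, S30e (SORBI_3004G335600) had 16.1, 16.6 and 18.1 FPKM in Roma-salt and 38.1, 63.8 and 34.3 FPKM in M-81E-salt, with a log2 fold change of −1.32 (SE 0.24) and an adjusted limma p of 0.0121. The other S30e locus (SORBI_3010G057100) went the other way, with 161, 166 and 165 FPKM in Roma-salt and 70.98, 101 and 101 FPKM in M-81E-salt, 0.86 (SE 0.16) and an adjusted limma p of 0.0137. L37Ae (SORBI_3003G257050) was listed at 0 in all 6 Roma libraries and at 0.563, 0.523 and 0.346 FPKM in M-81E-salt, with an adjusted limma p of 0.00275. The locus with the orthology number of L40e that is annotated to the small subunit (SORBI_3010G040700 with SORBI_3010G040600) had −1.01 with an adjusted limma p of 0.0254, and SORBI_3003G086700, with no orthology number, had −0.77 with 0.0457. The last, an L7e locus (SORBI_3006G206500), was also listed at 0 in all 6 Roma libraries and had 0.0740, 0.104 and 0.0421 FPKM in M-81E-salt, with an adjusted limma p of 0.0322. Of these 5 calls, those of SORBI_3003G086700 and SORBI_3006G206500 were each lost in 5 of the 6 fits that left out 1 library and that of the L40e locus in 3, whereas those of S30e and L37Ae were lost in 0. With the linear model of Ballgown the S30e locus had 0.32 and the L40e locus 1.20 on the log2 scale, the opposite direction, and with all 12 libraries in one fit S30e did not pass the adjusted test. The other lists differed between the lines to unlike degrees, with counts at an unadjusted limma p under 0.05 to be read against the shares of all loci given above. With salt, 39 ribosome biogenesis loci were higher and 3 lower of 62, with a median of 0.49 (0.31 after rescaling). Of 45 mitochondrial ribosomal protein loci 25 were higher and 1 lower, with a median of 0.52 (0.35 after rescaling). Initiation factors had a median of 0.36 (0.15 after rescaling) and elongation factors of 0.41 (0.17 after rescaling). The proteasome had a median of 0.22 (0.0093 after rescaling). DNA replication initiation loci had a median of 0.43 (0.31 after rescaling) and nucleosome loci of 0.63 (0.39 after rescaling). Without salt, the medians were 0.50 for ribosome biogenesis (0.24 after rescaling), 0.39 for mitochondrial ribosomal proteins (0.15 after rescaling), 0.19 for initiation factors (0.0045 after rescaling) and −0.08 for nucleosome loci (−0.39 after rescaling). DNA replication initiation loci, the other list of dividing-cell markers, were higher in Roma-CK. As deposited they summed to 63.6 to 79.1 FPKM in Roma-CK and 40.4 to 54.1 FPKM in M-81E-CK, without overlap. Proteasome loci summed to 920 to 1138.5 FPKM in Roma-CK and 671 to 783 FPKM in M-81E-CK, also without overlap. Elongation factor sums overlapped. The part of these lists in the ribosomal values was not tested. Reads of both lines were mapped to 1 sorghum genome, and how far sequence differences from it move the values of either line was not tested.

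In some families the copy that carried most of the FPKM differed from library to library of the same group. In S2e the leading locus (SORBI_3001G046300) held 55.8, 2.17 and 77.9% of the summed FPKM in Roma-salt and 79.5, 3.02 and 60.04% in Roma-CK. In M-81E-salt it held 77.7, 1.43 and 11.1% and in M-81E-CK 2.97, 2.05 and 15.8%. The libraries of each group thus spread widely. Replicate 2 held the lowest share in each of the 4 groups, and in Roma it was far below the others in both treatments. In FPKM the locus had 57.7, 0.958 and 78.5 in Roma-salt and 59.5, 0.524 and 51.4 in Roma-CK. L31e at the tunnel rim also spread widely, with 50.9, 151 and 53.7 FPKM in Roma-salt, 53.4, 204 and 169 in Roma-CK, 0.944, 43.6 and 45.9 in M-81E-salt and 51.97, 0.663 and 1.01 in M-81E-CK at SORBI_3007G211700. The L31e family summed to 2.14 FPKM in M-81E-CK replicate 2, against 108 and 72.5 FPKM in the other M-81E-CK libraries.

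In L4e the leading locus (SORBI_3001G057300) held 14.9, 65.2 and 77.8% in Roma-salt and 3.48, 11.7 and 15.4% in Roma-CK. In M-81E it held 73.6, 4.98 and 72.1% with salt and 74.95, 16.3 and 9.54% without it, so that the values of both M-81E groups ran over most of the same range. In S20e the leading locus (SORBI_3001G436200) had 133, 103 and 419 FPKM in Roma-salt and 123, 106 and 112 FPKM in Roma-CK, with 1 library far above the others. In L27Ae the leading locus (SORBI_3002G372400) had 106, 114 and 2.26 FPKM in Roma-salt and 5.62, 15.8 and 16.2 FPKM in Roma-CK. It had 43.02, 65.6 and 0.127 FPKM in M-81E-salt and 94.6, 91.1 and 13.9 FPKM in M-81E-CK. In L10e the shares spread less within each group. SORBI_3004G103700 held 41.2, 32.9 and 25.1% in Roma-salt and 60.7, 57.2 and 61.5% in Roma-CK, and 28.4, 32.4 and 31.4% in M-81E-salt and 28.5, 32.1 and 41.9% in M-81E-CK.

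**Figure D5:**
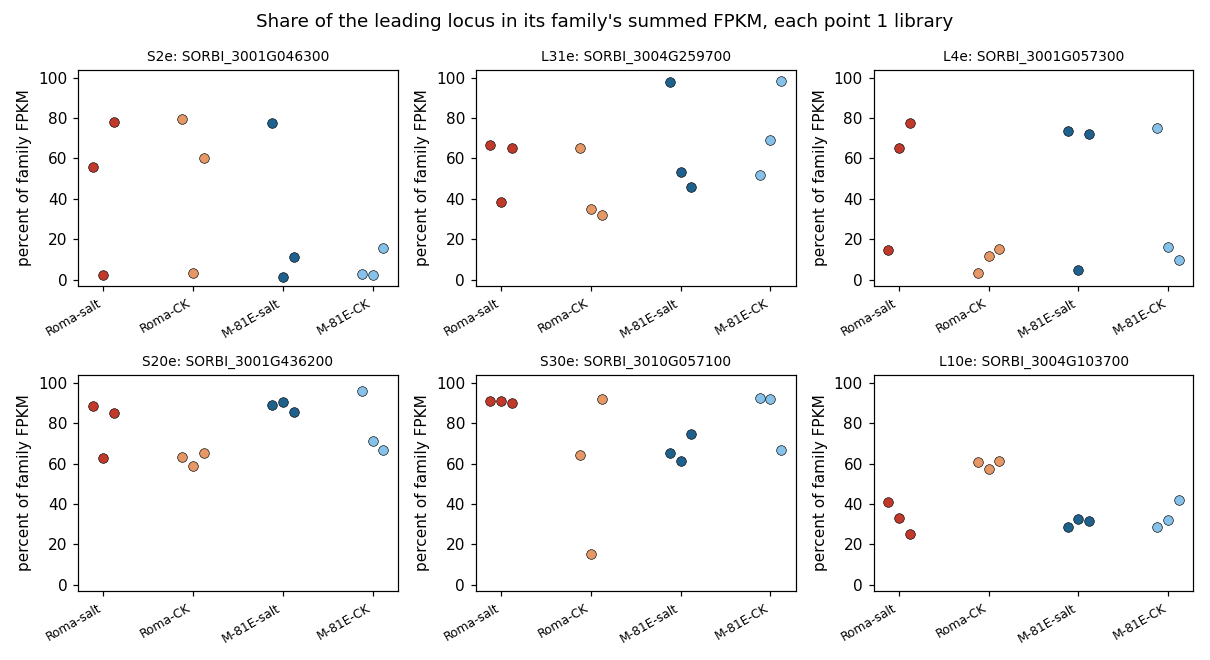
Percent of the family's summed FPKM held by its leading locus in 6 ribosomal protein families, by group, with 1 point per library. In S2e the points of a group lie as far apart as 2.17% and 77.9% in Roma-salt, whereas in L10e the 3 Roma-CK libraries lie between 57.2% and 61.5%.

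Some members were listed at 0 in libraries where similar libraries gave high values. L26e had a single member (SORBI_3003G078200), listed at 0 in 10 libraries, at 187 FPKM in M-81E-salt replicate 3 and at 280.4 FPKM in Roma-salt replicate 3. L27e (SORBI_3006G221200) was listed at 0 in Roma-salt replicate 1 only, and at 86.7 to 184 FPKM elsewhere. S16e (SORBI_3008G021100) was listed at 0 in M-81E-salt replicate 3, Roma-CK replicate 3 and Roma-salt replicate 3, and at 42.4 to 139 FPKM elsewhere. S13e (SORBI_3002G348100) had 0, 10.8 and 0 FPKM in Roma-salt and 10.05, 12.9 and 9.60 FPKM in Roma-CK, against 0, 0 and 0 FPKM in M-81E-salt and 0, 1.58 and 1.43 FPKM in M-81E-CK. Also at 0 in 11 libraries were a large-subunit locus with no orthology number (SORBI_3003G333900), at 11.8 FPKM in Roma-CK replicate 1 only, and S27Ae (SORBI_3009G054800), described above. L26e and S16e are core proteins of the ribosome, so a value of 0 is given here only as listed, and it covers no copy outside the ontology rule. In all, 14 large-subunit and 8 small-subunit members were listed at 0 in at least 1 library.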

How the data were processed

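RNA of 12 root libraries, 3 for each of the 4 groups, was sequenced by the authors. They trimmed reads with cutadapt, mapped them with Bowtie2 and TopHat2 and assembled and quantified loci with StringTie. The deposited table holds FPKM per library for 34352 loci, with gene ontology terms and KEGG orthology numbers. Versions and the genome build are not given in the sources used here. The table holds no counts, so the number of fragments behind each FPKM is unknown, and read totals from other sources were not used here. No value column was left unmatched to a library.

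Loci above 0 FPKM in at least 1 library of a fit were tested on log2(FPKM + 1) with limma 3.58.1 (R 4.3.3, moderated variances following the mean), with Benjamini-Hochberg adjustment over all loci tested and a threshold of 0.05. Each fit used the 6 libraries compared, and the interaction used all 12. The separate samples are biological replicates according to the study, with nothing given on separate cultures, so p-values measure the spread between these samples. An exact permutation test of 3 against 3 libraries (20 assignments) cannot go below 0.1. Tables and figures were made in Python 3.11.15 with numpy 2.4.6, pandas 2.3.3 and matplotlib 3.10.9, and the limma step was tested on simulated data.

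The members and lists were chosen with earlier results of these data known, so their counts are descriptions and no list was tested. Protein families were named from orthology numbers, since most descriptions read hypothetical protein, and family sums were added after the values had been seen. Named loci were the 5 highest of each subunit, per comparison the members with an adjusted p under 0.05 (up to 10 by size) and the 4 largest separated differences in each direction with a mean of at least 1 FPKM, members at 0 in one library and at 5 FPKM or more in another, copies of families with shifting shares, and the stalk and ubiquitin-fusion families. No member carried the number of S6e. Other loci named in the text were chosen after their values were seen. The RefSeq table matched 0 members, so no sequences or coordinates are given.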

Additional observations from a re-analysis of the deposited data

Results flagged for a closer look

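At 7 ribosomal protein loci the response to salt differed between Roma and M-81E, by the interaction of line and treatment over 12 libraries at an adjusted limma p under 0.05. All 7 differences, given as the Roma response minus the M-81E response on the log2(FPKM + 1) scale, were positive. L10e (SORBI_3001G383000) had 3.76, where the Roma response was 3.09 and the M-81E response −0.67. S2e had 1.01 at SORBI_3002G430800, with 0.52 in Roma and −0.49 in M-81E, and 1.13 at SORBI_3010G150575, with 0.47 in Roma and −0.66 in M-81E. At these 3 loci the libraries of salt and CK were separated in both lines, in opposite directions. L11e (SORBI_3004G104100) had 1.33, with −0.08 in Roma and −1.41 in M-81E. S16e (SORBI_3005G019700) had 1.29, with 0.05 in Roma and −1.24 in M-81E. S14e (SORBI_3006G106000 with SORBI_3006G106100) had 0.82, with 0.16 in Roma and −0.66 in M-81E, and L6e (SORBI_3004G198400) had 0.81, with 0.16 in Roma and −0.65 in M-81E. Only the calls of L10e and of S2e at SORBI_3002G430800 stayed in all 12 fits that left out 1 library. The other calls were each lost in 8 to 12 of these fits. With the replicate number as a block, or with the linear model of Ballgown, 2 members had a positive interaction at the adjusted p.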

How the results depend on the processing

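FPKM hold no depth, fragments of near-identical copies may be assigned to either copy, and with 3 libraries a group the adjusted tests rest on few samples. Counts are given below as higher and lower members at an adjusted limma p under 0.05 unless stated. Shares over all loci are given above only for the fits described under the processing, so none stands beside the counts below. After rescaling, M-81E salt against CK gave 1 and 3 (unadjusted higher 3) and Roma 1 lower. Roma-CK against M-81E-CK gave 9 and 12 (unadjusted 16 and 25, medians −0.0587 and −0.0681 in the large and small subunit), and Roma-salt against M-81E-salt gave 46 higher (unadjusted lower 12, medians 0.31 and 0.30). The summed FPKM became 5980.5 in M-81E-salt, 7945.4 in Roma-salt and 7879.5 in Roma-CK for the large subunit, and 3857.8, 4726.7 and 5020.1 for the small subunit. A pseudocount of 0.1 gave Roma 1 lower and a small-subunit median of 0.64 between Roma-salt and M-81E-salt. Testing only loci that averaged 1 FPKM or more gave 5 lower (unadjusted higher 3) in M-81E, 2 and 2 in Roma, and 3 lower between Roma-salt and M-81E-salt. One prior variance gave 3 lower in M-81E, 2 and 2 in Roma, and 1 negative interaction. All 12 libraries in one fit gave 1 and 22 in M-81E, 3 and 3 in Roma, and 26 higher between Roma-CK and M-81E-CK. Without loci of more than 1 gene M-81E gave 1 higher. With the eukaryotic orthology number only, chosen after seeing the data, M-81E gave 1 higher and Roma-CK against M-81E-CK 9 higher. The linear model of Ballgown, with its library covariate, gave 0 and 0 in M-81E, 0 higher in Roma, 2 positive interactions (large-subunit median 0.42), 0 and 0 between Roma-CK and M-81E-CK (unadjusted higher 4, medians −0.0556 and −0.110) and 0 and 0 between Roma-salt and M-81E-salt (unadjusted higher 3, medians 0.0896 and 0.168). Its covariate shares 0.852 and 0.987 of its variance with the line in the CK and salt comparisons of the lines. Under it the log2 fold change of SORBI_3010G040700 with SORBI_3010G040600 turned to 0.51 without salt, and with salt those of SORBI_3007G184400 (−0.84), SORBI_3005G019700 (−1.01), SORBI_3004G335600 (0.32), SORBI_3003G160900 (−3.41), SORBI_3007G211700 (−10.92) and SORBI_3010G040700 with SORBI_3010G040600 (1.20) turned. Directions were checked only at the loci named for a comparison by adjusted p or as largest separated differences. These were 8 in M-81E, 8 in Roma, 7 for the interaction, 13 between the CK groups and 14 between the salt groups. None of the others among them turned under any alternative. Other loci named in the text, such as LP0 and LP1 between the salt groups, were not checked for this. The cause of the other changes was not tested.

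Same-numbered libraries were not paired by the labels, and their deviations correlated at −0.081 to 0.033, with 2 of 12 pairs best with their own number. A replicate block gave 0 and 0 in M-81E, 0 higher in Roma (unadjusted higher 7), 2 positive interactions, 4 higher between Roma-CK and M-81E-CK (unadjusted higher 23), and 49 and 3 between Roma-salt and M-81E-salt.

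Leaving out 1 library at a time, M-81E gave 0 higher and 0 to 1 lower (unadjusted 2 to 6 and 45 to 77), with medians of −0.46 to −0.21 in the large and −0.52 to −0.25 in the small subunit. Roma gave 0 to 2 higher and 0 to 2 lower (unadjusted 6 to 9 and 11 to 31), with medians of −0.10 to 0.02 and −0.11 to 0.01. The interaction gave 2 to 5 positive and 0 to 1 negative (unadjusted 36 to 51 and 3 to 9), with medians of 0.12 to 0.40 and 0.20 to 0.43. Roma-CK against M-81E-CK gave 7 to 28 higher and 4 to 6 lower (unadjusted 21 to 69 and 6 to 8), with medians of 0.15 to 0.32 and 0.13 to 0.29. Roma-salt against M-81E-salt gave 56 to 84 higher and 2 to 4 lower (unadjusted 100 to 117 and 6 to 7), with medians of 0.49 to 0.60 and 0.48 to 0.56. Without M-81E-CK replicate 3, chosen after seeing the data for the sums, these were 6647 and 4179.8 FPKM.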

Other observations

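Loci that carry a eukaryotic ribosomal orthology number but do not meet the ontology rule formed a second set of 151 loci, which was looked at after the members' values had been seen. Their summed FPKM was 4102, 3956 and 4281 in Roma-salt and 4717, 5192 and 4323 in Roma-CK, and 3077, 3483 and 3570.0 in M-81E-salt and 4042, 4077 and 4601 in M-81E-CK. As deposited, the M-81E-salt libraries were the lowest of the 12. This ranking between the lines is lost with the rescaling, which lowered the Roma and raised the M-81E libraries. The 3 Roma-salt libraries lay below the 3 Roma-CK libraries, which was not so for the members.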
